A study of Homo sapiens with 18 samples.

Results

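The MHC class I antigen presentation genes HLA-B, HLA-C, HLA-E, HLA-F, B2M, TAP1, TAP2, TAPBP and NLRC5 were described in G401 cells treated with an EZH2 inhibitor in the presence or absence of RB1. These 9 genes were taken by symbol from the 55765 genes of the deposited table, and the rule itself uses no measured value. G401 is an established cell line from a malignant rhabdoid tumour. A control line cut at the AAVS1 safe harbour, with RB1 intact (WT), and the clones E1 and F2, each a single clone with both RB1 alleles deleted by CRISPR/Cas9 and no RB1 protein on Western blots per the submitters, received 10 µM tazemetostat or an equal volume of its solvent DMSO for 11 days. Tazemetostat blocks EZH2, the enzyme that places the repressive H3K27 methyl mark. The 6 groups (WT, E1 and F2, each with DMSO or tazemetostat) held 3 poly(A) RNA-seq libraries each, described by the submitters as biological replicates.

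MHC class I molecules show peptides from inside the cell to cytotoxic T cells and natural killer cells. A heavy chain pairs with the small subunit β2-microglobulin in the endoplasmic reticulum, where the TAP transporter delivers peptides cut by the proteasome and tapasin holds the empty molecule next to TAP until a peptide binds. Interferons induce most of these genes through shared promoter elements, and NLRC5 is the transactivator that acts on class I promoters. Many tumours carry low levels of this machinery.

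The libraries held 25709489 to 39314860 reads. RB1 transcript was at most 1045 normalized counts in a clone library and at least 2300 in a WT library. SMARCB1, whose loss defines rhabdoid tumours, was at 0 reads in all 18 libraries. The 8 leukocyte markers (PTPRC, CD3E, CD79A, CD14, LYZ, FCER1G, CD68 and SPI1) summed to between 23.9 and 59.1 normalized counts in any library. In DMSO libraries of WT, E1 and F2 the sum of the 8 markers was at most 36.8, 33.1 and 29.7. In treated libraries it was at least 41.2, 34.1 and 44.4, so it was higher with tazemetostat in every line. The cause of this rise was not tested. In every DMSO group PTPRC, CD3E and SPI1 had no read. With tazemetostat, PTPRC had 1 read over the 3 WT libraries and 4 over those of F2. CD3E had 4 in E1 and SPI1 had 1 in F2.

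Promoters are shown for the members that passed the test below and have an entry in the RefSeq promoter table (GRCh38.p14), because these short stretches carry the elements through which the genes are known to be induced together. Entries were found for 7 of the 9 members. Each line gives the 250 bases before the transcription start, 5′ to 3′ on the gene's own strand. Capitals mark matches, on either strand, to 4 motifs: the core of the interferon-stimulated response element (GAAA, any 2 bases, GAAA), the NF-kB consensus, the X2 box core TGACG and the Y box core CCAAT. Overlapping matches run together in 1 block of capitals.
HLA-B (chr6:31357180-31357429, minus strand): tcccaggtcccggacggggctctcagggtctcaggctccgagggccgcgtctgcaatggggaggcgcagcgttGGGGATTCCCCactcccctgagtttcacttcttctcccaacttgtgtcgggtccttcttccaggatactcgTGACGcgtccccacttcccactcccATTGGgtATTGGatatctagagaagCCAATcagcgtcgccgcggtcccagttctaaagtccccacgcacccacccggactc
HLA-C (chr6:31272093-31272342, minus strand): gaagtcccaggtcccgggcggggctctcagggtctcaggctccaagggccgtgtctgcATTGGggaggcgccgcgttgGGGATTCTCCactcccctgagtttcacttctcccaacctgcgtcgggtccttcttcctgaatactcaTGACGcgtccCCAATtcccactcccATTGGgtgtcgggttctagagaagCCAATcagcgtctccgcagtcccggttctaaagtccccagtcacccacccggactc
B2M (chr15:44711267-44711516, plus strand): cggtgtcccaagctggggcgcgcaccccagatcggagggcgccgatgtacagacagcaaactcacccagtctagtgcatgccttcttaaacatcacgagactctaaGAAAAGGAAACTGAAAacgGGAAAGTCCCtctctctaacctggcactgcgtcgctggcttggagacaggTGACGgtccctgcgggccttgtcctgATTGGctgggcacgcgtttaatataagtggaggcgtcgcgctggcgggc
TAP1 (chr6:32853705-32853954, minus strand): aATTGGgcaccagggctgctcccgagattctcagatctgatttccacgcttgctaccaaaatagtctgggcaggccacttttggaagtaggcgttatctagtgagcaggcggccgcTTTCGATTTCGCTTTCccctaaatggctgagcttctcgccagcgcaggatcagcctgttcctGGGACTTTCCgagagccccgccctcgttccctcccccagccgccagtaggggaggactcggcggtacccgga
TAP2 (chr6:32838740-32838989, minus strand): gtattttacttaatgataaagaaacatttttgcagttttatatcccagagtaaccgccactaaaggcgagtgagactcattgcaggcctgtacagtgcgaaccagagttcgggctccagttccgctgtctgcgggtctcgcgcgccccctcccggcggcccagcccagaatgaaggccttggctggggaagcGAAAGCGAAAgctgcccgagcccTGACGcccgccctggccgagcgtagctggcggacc
TAPBP (chr6:33314079-33314328, minus strand): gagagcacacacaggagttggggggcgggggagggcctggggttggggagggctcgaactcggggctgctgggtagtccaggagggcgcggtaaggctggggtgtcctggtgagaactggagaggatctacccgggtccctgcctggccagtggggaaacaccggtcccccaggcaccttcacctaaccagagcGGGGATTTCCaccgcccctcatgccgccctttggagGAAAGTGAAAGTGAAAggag

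The HLA-B and HLA-C stretches held the same kinds of match, with an NF-kB match ending 167 and 163 bases before the start, an X2 core ending 102 and 101 bases before it, and Y box cores, most of them nearer the start. B2M was the member that held all 4 motifs, with a pair of overlapping response element cores between 144 and 129 bases before the start. TAP1, TAP2 and TAPBP held the response element core but TAP2 and TAPBP no Y box core, and a second listed TAP1 start, not printed, held none of the 4. Over the 7 members with an entry, the response element core was found in 5, against 3.02% of the 35116 promoters in the table. The NF-kB consensus was found in 5 (9.96% of all promoters), the Y box core in 5 (32.0%) and the X2 core in 4 (21.2%). These matches describe letters in a window, not binding. Exact matches alone were marked, so a stretch without a mark may still hold a variant of an element.

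The first question was how the genes responded to EZH2 inhibition in each line. All values are normalized counts, reads divided by a size factor per library. A gene was called higher or lower when its Benjamini-Hochberg adjusted p in limma, over 16154 genes with a mean of at least 10, lay below 0.05 and its log2 change reached 1 in either direction. In WT, 8 members were tested and all 8 rose with tazemetostat, by a median of 1.58 on the log2 scale and between 1.07 (TAP2) and 3.25 (HLA-B), where 14.5% of all tested genes were called higher and the median gene moved by 0.03. In E1, 3 members rose (HLA-B, HLA-C and NLRC5), with a median over the 8 of 0.81, where 11.3% of genes were called higher. In F2, 5 members rose (HLA-B, HLA-C, TAP1, TAPBP and NLRC5), with a median of 1.27, where 13.3% of genes were called higher. Without the fold limit the adjusted p was under 0.05 for 8, 7 and 8 members of WT, E1 and F2. It was also under 0.05 for 10367, 7554 and 8438 of the 16154 tested genes, with 5618, 4372 and 4684 of them higher. Every one of the 8 log2 changes was above 0 in each line. With every library scaled to the same total, TAP2 and TAPBP in WT (0.92 and 0.99) and NLRC5 in E1 (0.96) came just short of the limit. HLA-F, the remaining member, was too low to test. Because these are bulk libraries, more expressing cells and more RNA per cell cannot be told apart.

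**Figure D1:**
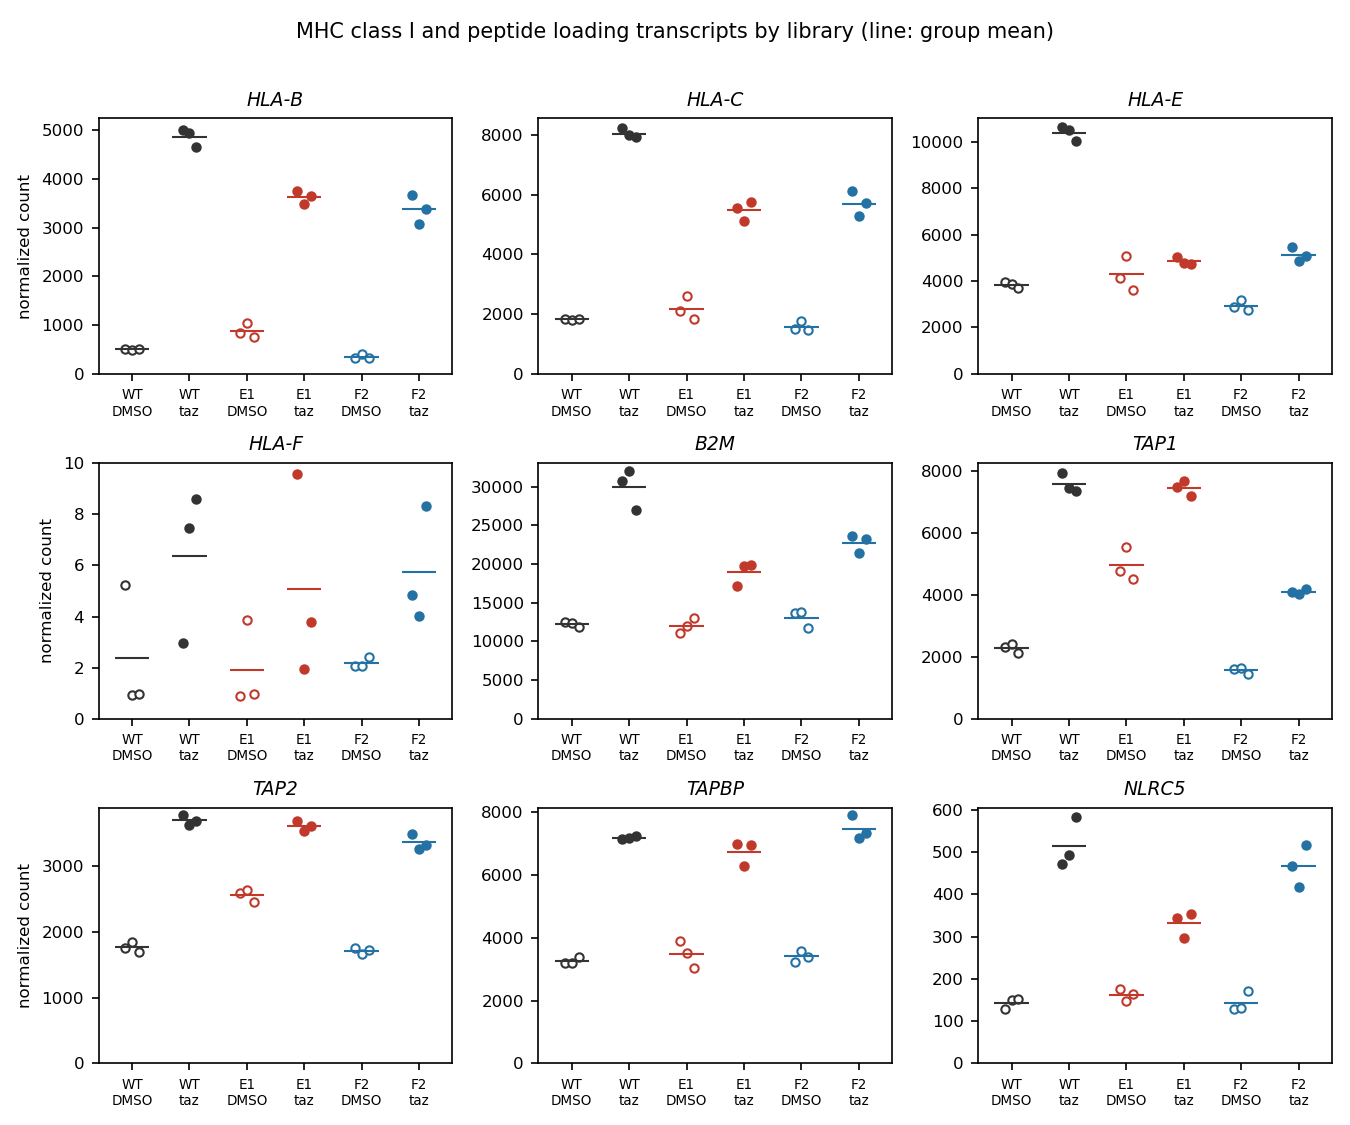
Normalized count of each of the 9 genes (vertical axis from 0, linear) in each library, by group; open points are DMSO, filled points tazemetostat, and the line is the mean of 3 libraries. In WT the mean of HLA-B goes from 509 to 4865 and that of TAP2 from 1765 to 3702, while HLA-F stays below 10 throughout.

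HLA-B, a classical heavy chain, moved most. It was at 516, 497 and 515 in the WT DMSO libraries and at 5008, 4930 and 4657 with tazemetostat. In E1 the DMSO libraries held 847, 1034 and 758 and the treated ones 3751, 3480 and 3646. In F2 they held 325, 402 and 320 against 3678, 3066 and 3384. Treated and DMSO libraries were far apart in each line, and the WT treated libraries stood above those of both clones, whose own ranges overlapped. HLA-B rose on the log2 scale by 3.25 ± 0.10 (SE) in WT cells, 2.05 ± 0.10 in clone E1 and 3.27 ± 0.10 in clone F2 (limma adjusted p 2.8e-15, 2.7e-12 and 2.2e-15). Per kilobase of transcript HLA-B rose from 329 ± 7 to 3145 ± 119 normalized counts (SD, n = 3) in WT, where TAP1 reached 2557 ± 105 and TAPBP 3813 ± 19. A pseudogene model on the opposite strand shares 24.0% of the exon bases of HLA-B in GENCODE v29.

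HLA-C, the other classical heavy chain in the set, was at 1850, 1803 and 1837 in WT with DMSO and at 8227, 7992 and 7939 with tazemetostat. E1 went from 2096, 2621 and 1846 to 5570, 5124 and 5771. F2 went from 1517, 1758 and 1467 to 6113, 5273 and 5711. The DMSO ranges of WT and E1 overlapped. With DMSO the F2 libraries already lay below those of WT (log2 difference -0.22, limma adjusted p 0.13, not called). Under treatment both clones lay below WT. HLA-C rose in all 3 lines, by 2.14 ± 0.10, 1.34 ± 0.10 and 1.85 ± 0.10 on the log2 scale in WT, E1 and F2 (limma adjusted p 7.8e-13, 9.9e-10 and 6.6e-12).

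HLA-E presents leader peptides of other class I chains to the NKG2A receptor of natural killer cells. Its WT libraries held 3939, 3858 and 3718 with DMSO and 10618, 10491 and 10040 with tazemetostat. In E1 the DMSO libraries, at 4145, 5067 and 3633, overlapped the treated ones at 5031, 4776 and 4740. In F2 the values were 2900, 3165 and 2759 against 5460, 4874 and 5087. HLA-E thus rose in WT (log2 change 1.44 ± 0.09, limma adjusted p 5.6e-11), was 1.75-fold the DMSO level in F2 (0.81 ± 0.09, adjusted p 2.8e-07, under the fold limit), and in E1 gave 0.19 ± 0.09 with a 95% interval of 0.01 to 0.38 and an adjusted p of 0.083.

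HLA-F, a class I chain with a restricted pattern of expression, had between 1 and 9 reads in a library. The 3 libraries of a group together had 8 reads for WT, 6 for E1 and 6 for F2 with DMSO, and 18, 15 and 18 with tazemetostat. The count was above 3 reads in 9 of the 18 libraries, and no change was detectable at this depth. With no filter on low genes, its log2 changes were 1.26, 1.01 and 1.03 in WT, E1 and F2, with limma adjusted p of 0.1, 0.24 and 0.22. In the GENCODE v29 models 2 pseudogenes on the opposite strand cover parts of its exons, and whether counting used the strand is not given in the sources used here.

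B2M, the shared light chain, was the most abundant member per kilobase in all 6 groups, at 7182 ± 233 normalized counts per kilobase (SD, n = 3) in WT with DMSO. Its normalized counts were 12536, 12407 and 11794 in WT with DMSO and 30763, 32001 and 26907 with tazemetostat. E1 held 11063, 11925 and 12943 against 17105, 19681 and 19882. F2 held 13656, 13729 and 11655 against 23553, 21393 and 23238. The 3 lines overlapped in DMSO and separated under treatment, in the order WT, F2, E1 with no overlap. B2M rose in WT (1.28 ± 0.09, limma adjusted p 1.9e-10). In the clones the log2 changes were 0.66 ± 0.09 in E1 and 0.81 ± 0.09 in F2, with adjusted p of 3.3e-06 and 1.8e-07, both under the fold limit.

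TAP1 and TAP2 are the subunits of the peptide transporter. TAP1 was at 2308, 2396 and 2126 in WT with DMSO and at 7924, 7426 and 7350 with tazemetostat. In E1 it was already at 4775, 5545 and 4505 with DMSO and reached 7488, 7663 and 7188. In F2 it was at 1612, 1619 and 1425 and reached 4101, 4005 and 4183, so the treated F2 libraries lay below the untreated E1 libraries. TAP1 rose in WT (1.73 ± 0.07) and F2 (1.40 ± 0.07), with limma adjusted p of 2.4e-13 and 5.5e-12, and its change in E1 was 0.60 ± 0.07 (adjusted p 1.6e-06), under the fold limit. An antisense RNA model, PSMB8-AS1, shares 15.4% of the exon bases of TAP1 in GENCODE v29.

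TAP2 had the smaller log2 change of the pair in each line, a difference between genes that was not tested. The WT libraries went from 1762, 1842 and 1691 to 3784, 3629 and 3693, those of E1 from 2588, 2636 and 2451 to 3694, 3537 and 3607, and those of F2 from 1760, 1661 and 1726 to 3497, 3257 and 3330. E1 with DMSO lay above the other DMSO groups, and the treated WT and E1 libraries overlapped. For WT, E1 and F2 the log2 changes came to 1.07 ± 0.05, 0.50 ± 0.05 and 0.97 ± 0.05 (limma adjusted p 2e-12, 1.9e-07 and 9e-12), of which the first passed both limits. In GENCODE v29 another protein-coding gene model on the same strand, AL669918.1, shares 80.5% of the exon bases of TAP2. The deposited table holds no gene of that name, and the annotation used for counting is not given. Whether this overlap affects the TAP2 value is therefore not known.

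TAPBP encodes tapasin, the bridge between TAP and the empty heavy chain. With DMSO its WT libraries held 3201, 3210 and 3378, those of E1 3898, 3511 and 3026, and those of F2 3240, 3594 and 3393. With tazemetostat the WT libraries held 7168, 7189 and 7239, those of E1 7006, 6278 and 6969, and those of F2 7906, 7199 and 7337. It was the member with the most even change, its log2 change being 1.14 ± 0.08 for WT, 0.96 ± 0.08 for E1 and 1.13 ± 0.08 for F2 (limma adjusted p 1.8e-10, 3e-09 and 2.2e-10). The E1 value lay just under the fold limit and was 1.05 without E1 DMSO replicate 1 and 1.01 without E1 tazemetostat replicate 2.

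NLRC5, the class I transactivator, was the least abundant tested member, at 129, 149 and 152 normalized counts in WT with DMSO and 471, 493 and 583 with tazemetostat. E1 went from 175, 147 and 165 to 345, 297 and 354, and F2 from 128, 131 and 171 to 467, 418 and 518. The DMSO groups overlapped, and the treated E1 libraries lay below those of WT and F2, which overlapped each other. NLRC5 rose in each line, with log2 changes of 1.84 ± 0.13 for WT, 1.03 ± 0.13 for E1 and 1.71 ± 0.13 for F2 (limma adjusted p 5.1e-10, 2.4e-06 and 1.7e-09). The call in E1 rests on single libraries: the log2 change was 0.96 without E1 DMSO replicate 2, and 1.00 and 0.98, still under the limit, without E1 tazemetostat replicate 1 or 3.

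**Figure D2:**
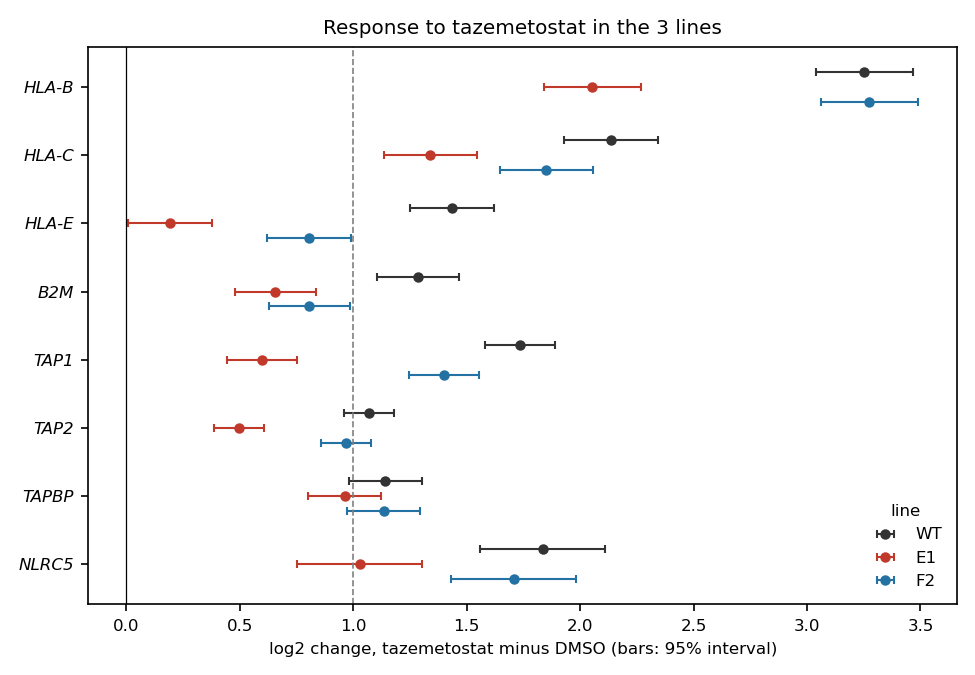
Log2 change with tazemetostat (horizontal axis; bars are 95% intervals from limma, n = 3 libraries a group) for the 8 tested genes in WT, E1 and F2; the dashed line marks the fold limit of 1. HLA-B has the largest change in every line (3.25, 2.05 and 3.27), and HLA-E the widest gap between WT (1.44) and E1 (0.19).

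The second comparison asked whether loss of RB1 alone moved these genes. In DMSO, E1 differed from WT in 1 called member, TAP1, which was higher by 1.11 ± 0.07 (log2, SE; limma adjusted p 1.8e-09), where 5.04% of all tested genes were called in either direction. HLA-B and TAP2 were 1.71-fold and 1.45-fold the WT level (0.78 ± 0.10 and 0.54 ± 0.05, limma adjusted p 1.4e-05 and 4e-07), under the fold limit. For B2M and TAPBP the differences, -0.03 and 0.08, had 95% intervals of -0.21 to 0.15 and -0.07 to 0.24. In F2 no member was called by limma, edgeR or DESeq2, where limma called 2.98% of genes. An unadjusted limma p under 0.05 was found for 4 members, and the share of all genes at that limit was not counted. Without the fold limit the limma adjusted p was under 0.05 for 3 members and for 3260 of the 16154 tested genes. HLA-B, TAP1 and HLA-E differed from WT by -0.55 ± 0.10, -0.55 ± 0.07 and -0.39 ± 0.09 (limma adjusted p 0.00074, 2.8e-05 and 0.0044). Thus HLA-B and TAP1 stood above WT in one RB1-null clone and below it in the other, with no overlap of libraries in either case. E1 DMSO replicate 2 was the highest of its group for HLA-B, HLA-C, HLA-E, TAP1 and TAP2. Leaving out any 1 library left the count of called members at 1 in E1 and 0 in F2.

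Under tazemetostat, the member called in both clones against WT was HLA-E, which was lower by 1.10 ± 0.09 in E1 and by 1.02 ± 0.09 in F2 on the log2 scale (limma adjusted p 9.8e-09 and 2.6e-08). It was the single called member in each clone, where 11.3% of all tested genes were called between E1 and WT and 12.3% between F2 and WT. The F2 call lies at the fold limit, and HLA-E gave -0.999 without WT tazemetostat replicate 1 and -0.98 without F2 tazemetostat replicate 2, which leaves no member called, and -0.87 with every library scaled to the same total. HLA-B and HLA-C were between 0.68-fold and 0.75-fold the WT level in both clones, with no overlap of libraries (E1 -0.42 and -0.55, F2 -0.53 and -0.50, limma adjusted p between 0.00012 and 0.0019). B2M was 0.63-fold WT in E1 and 0.76-fold in F2. TAP1 and TAP2 in E1 differed from WT by -0.02 and -0.04, with 95% intervals of -0.18 to 0.13 and -0.15 to 0.07, and turned to 0.04 and 0.03 with every library scaled to the same total, whereas TAP1 in F2 differed by -0.88 ± 0.07 (adjusted p 1.4e-08). TAPBP gave -0.09 in E1 and 0.05 in F2, with intervals of -0.25 to 0.07 and -0.11 to 0.21.

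The third comparison tested whether the response itself differed between lines, by subtracting the tazemetostat effect of one line from that of a second (the interaction term of the fit). These differences share libraries with each other and with the comparisons above. Between E1 and WT, 3 members were called, all with the smaller response in E1, where 10% of all tested genes were called in either direction. HLA-E gave -1.24 ± 0.12, HLA-B -1.20 ± 0.14 and TAP1 -1.14 ± 0.10 (limma adjusted p 5.2e-07, 4.1e-06 and 1.7e-07). The other members lay between -0.81 (NLRC5) and -0.18 (TAPBP), and the median over the 8 was -0.80, against 0.01 over all tested genes. Between F2 and WT no member was called by limma, edgeR or DESeq2, where limma called 7.48% of genes. An unadjusted limma p under 0.05 was found for 3 members, and the share of all genes at that limit was not counted. The 3 members were HLA-E at -0.63 ± 0.12, B2M at -0.48 ± 0.12 and TAP1 at -0.33 ± 0.10 (limma adjusted p 0.00098, 0.0068 and 0.024). Without the fold limit the adjusted p was under 0.05 for these 3 members and for 4344 of the 16154 tested genes. For HLA-B the F2 response differed from that of WT by 0.02 with a 95% interval of -0.28 to 0.32, and for TAPBP by -0.01 with an interval of -0.23 to 0.22. Between the clones HLA-B was called, with a response smaller in E1 by 1.22 ± 0.14 (limma adjusted p 7.2e-06), where 5.81% of genes were called. TAP1 differed by -0.81 ± 0.10, NLRC5 by -0.68 ± 0.19 and HLA-E by -0.61 ± 0.12, each under the fold limit.

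The 3 members with a called difference between E1 and WT had different starting points. TAP1 in E1 was above WT in DMSO (1.11) and level with it under tazemetostat (-0.02). HLA-E in E1 was near WT in DMSO (0.14, 95% interval -0.04 to 0.33) and below it under tazemetostat (-1.10). HLA-B was above WT in DMSO (0.78) and below it under tazemetostat (-0.42). The E1 change with tazemetostat was 34.4% of the WT log2 change for TAP1, 13.4% for HLA-E and 63.1% for HLA-B, and for TAPBP it was 84.3%. In F2 these shares were 80.9%, 56.1%, 100.6% and 99.3%.

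**Figure D3:**
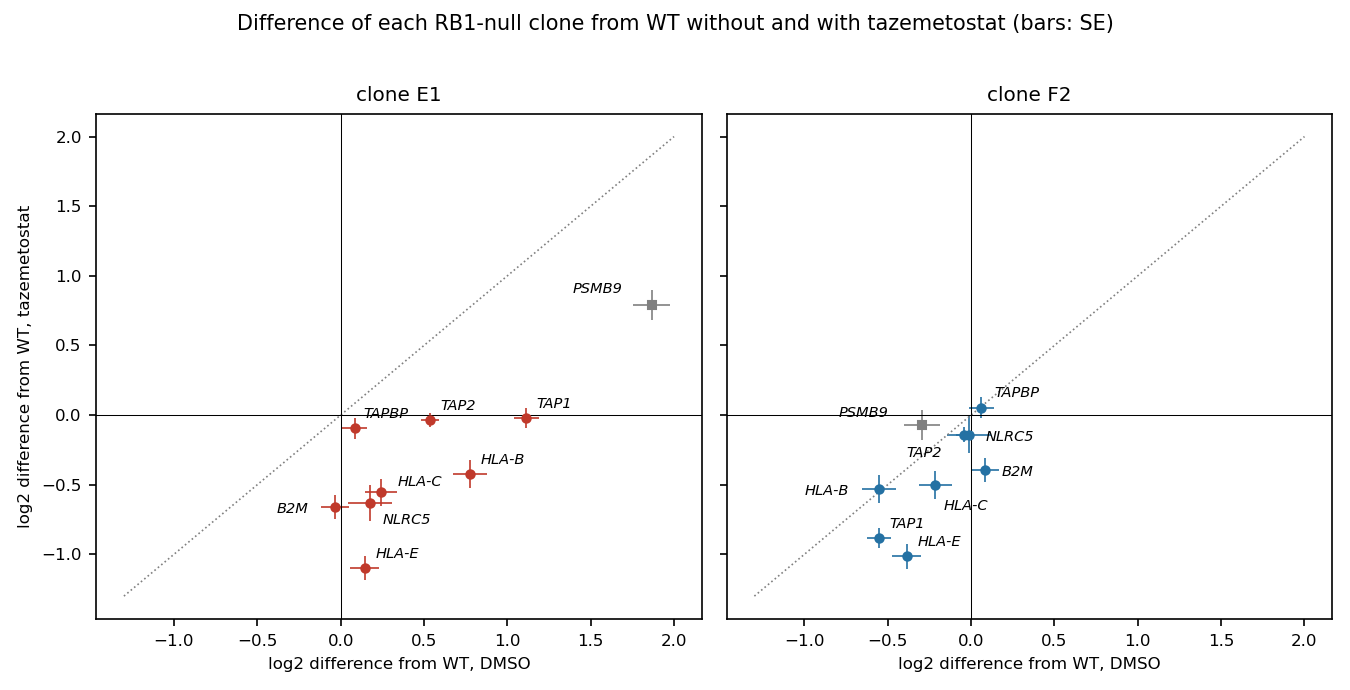
Log2 difference of each clone from WT with DMSO (horizontal axis) and with tazemetostat (vertical axis) for the 8 tested genes (circles) and PSMB9 (square); bars are SE from limma, and on the dotted diagonal the clone and WT respond alike. In E1, TAP1 (1.11 and -0.02), HLA-B (0.78 and -0.42) and HLA-E (0.14 and -1.10) lie furthest below the diagonal among the members, while in F2 HLA-B (-0.55 and -0.53) lies on it.

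PSMB9, an interferon-induced proteasome subunit, is the neighbour of TAP1, and the 2 genes start 488 bases apart on opposite strands in the RefSeq table. Its normalized counts were 519, 561 and 521 in WT with DMSO and 1078, 1070 and 999.97 with tazemetostat. In E1 it was at 1780, 2493 and 1659 with DMSO and 1787, 1885 and 1773 with tazemetostat, and in F2 at 449, 461 and 398 against 1045, 946 and 1006. The DMSO libraries of E1 thus stood above all WT and F2 libraries, treated or not, and overlapped the treated E1 libraries. PSMB9 was higher in E1 than in WT with DMSO by 1.86 ± 0.11 (log2, SE), and its response was smaller in E1 than in WT by 1.07 ± 0.15 and than in F2 by 1.30 ± 0.15 (called by limma in each case).

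The other 40 genes of the pathway were taken from lists by role, of which 38 were high enough to test. Tazemetostat left 6 called higher and 1 lower for WT, 2 and 1 for E1, and 7 and 0 for F2, where 14.5%, 11.3% and 13.3% of all tested genes were called higher and 6.77%, 3.78% and 3.71% lower. Their median log2 changes were 0.34, 0.15 and 0.30. The counts called higher for WT and F2 include HLA-G, whose calls are not independent of the filter on low genes.

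Among the 4 tested genes of the immunoproteasome and its activator, PSMB10, an inducible catalytic subunit, rose in WT (1.17) and F2 (1.46), and PSMB9 rose in F2 (1.20). PSME1 and PSME2, which form the proteasome activator, gave 0.44 and 0.38 in WT. PSMB8 was below the filter. None of the 3 constitutive counterparts PSMB5, PSMB6 and PSMB7 was called, with log2 changes between -0.48 and -0.14 over the 3 lines. Of the peptide-trimming enzymes of the endoplasmic reticulum, ERAP1 rose in F2 (1.13) and gave 0.26 in WT and 0.43 in E1, and ERAP2 was called in no line. The general loading chaperones CALR, CANX and PDIA3 were called in no line, with the largest change at 0.75 for CALR in F2. TAPBPL, a tapasin relative that edits peptides, rose in F2 (1.44) from a mean of 8.7 to 24.9 normalized counts.

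Of the 12 promoter factors, IRF1, which binds the interferon-stimulated response element, rose in every line (log2 changes of 1.98 ± 0.08 for WT, 1.18 ± 0.08 for E1 and 1.97 ± 0.08 for F2). Its mean went from 323 to 1281 normalized counts in WT, from 470 to 1070 in E1 and from 315 to 1244 in F2. The RFX complex members RFX5, RFXAP and RFXANK, which bind the X box beside NLRC5, were called in no line and lay between -0.47 and 0.23. Of the 7 interferon receptors and kinases, IFNGR1, the ligand-binding chain of the interferon gamma receptor, rose in all 3 lines (1.82, 1.38 and 1.35). IFNGR2, IFNAR1, IFNAR2, JAK1, JAK2 and TYK2 were called in none. The JAK1 mean in WT still went from 12069 to 23916 normalized counts with no overlap of libraries, under the fold limit. That of JAK2 in WT went from 715 to 597.

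Among the 6 tested class I-like genes, the stress ligands MICA and MICB rose in WT (1.37 and 1.08). HLA-G was called higher in WT and F2 from few reads (means of 4.2 to 18.3 and 3.7 to 20.7 normalized counts). In both lines the HLA-G mean was under the filter of 10 with DMSO and over it with tazemetostat. These HLA-G calls are therefore not independent of that filter. Its WT libraries overlapped, at 6.99, 0.94 and 4.73 with DMSO and 15.8, 4.68 and 34.5 with tazemetostat. In E1 the HLA-G mean went the other way, from 12.5 to 8.6. HFE, which regulates iron uptake, fell in WT by 1.13, and FCGRT, the neonatal Fc receptor chain, fell in E1 by 1.17. MR1 was called in no line. HLA-G is a near-identical relative of the other HLA genes, and like HLA-B, HLA-C and HLA-E its value is uncertain where reads match several of them.

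**Figure D4:**
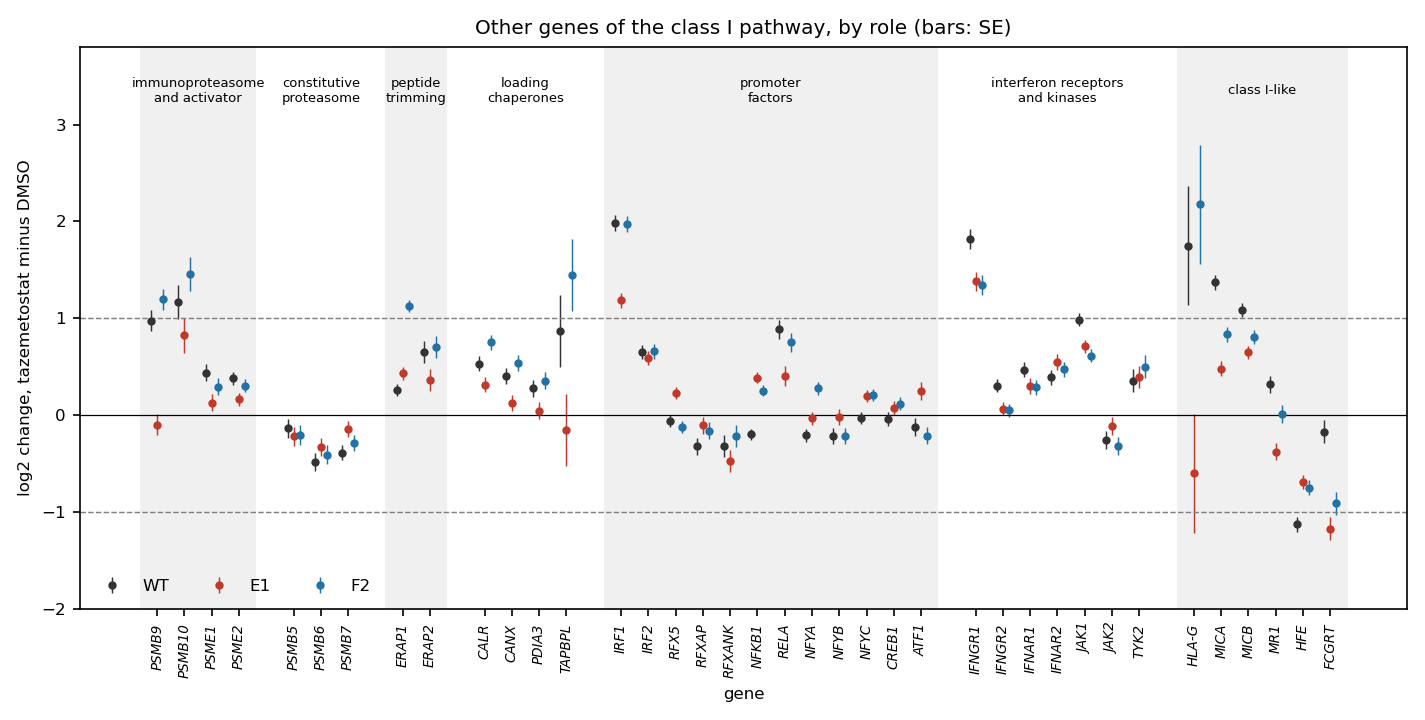
Log2 change with tazemetostat (vertical axis; bars are SE, n = 3 libraries a group) of the 38 tested genes of the pathway lists in WT, E1 and F2, grouped by role; dashed lines mark changes of 1 and -1. IRF1 (1.98, 1.18 and 1.97) and IFNGR1 (1.82, 1.38 and 1.35) lie above 1 in each line, and the constitutive proteasome genes lie below 0.

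Markers of professional antigen presenting cells were read beside these results. CIITA, the MHC class II transactivator and a relative of NLRC5, had 0 reads in all 9 DMSO libraries. With tazemetostat the WT libraries held 45.3, 46.8 and 44.3 normalized counts of it, those of E1 11.7, 6.77 and 9.42, and those of F2 23.3, 27.3 and 25.9. HLA-DRA, a class II chain, was likewise at most 1 read in a DMSO library, and with treatment averaged 122 ± 17 (SD, n = 3) for WT, 12.2 ± 3.7 for E1 and 63.8 ± 9.7 for F2. Both were called higher with treatment in all 3 lines and lower in E1 than in WT under treatment (limma). They passed the filter on low genes only through treated libraries, so their rise over DMSO is not independent of that filter. CD74, the class II invariant chain, rose in WT (1.57) and F2 (1.40) and gave 0.15 in E1. The 5-gene list, with CD80 and CD86, summed to between 1431 and 3031 normalized counts in DMSO libraries. In treated ones the sum lay between 2854 and 6242, and nearly all of it was CD74 in both cases. CD80 and CD86 were at 0 in every DMSO group and had reads in every treated group. Of the 8 leukocyte markers, 2 were high enough to test, and CD68 was called higher in E1 (1.06) from a mean of 8.2 to 17.8 normalized counts. The part of other cells in the members' changes was not tested.

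Outside these lists, the genes whose group means followed the members' median pattern most closely were B3GNT9 and SNAPC1, followed by MT-TI, CTD-2267D19.2 and NPTXR. Likeness was the root mean square difference between a gene's 5 log2 changes of group means from WT with DMSO and the members' median changes, over the 6 groups. It was 0.09 for B3GNT9 and for SNAPC1 and 0.13 to 0.14 for the other 3. The members themselves lay further from their own median, between 0.23 for TAPBP and 1.34 for HLA-B, so the genes of the set differed in the size of their change.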

How the data were processed

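Groups and replicate numbers came from the sample titles. Per the submitters' processing notes, reads were handled with Trim Galore 0.4.4, STAR 2.6.0a, HTSeq and DESeq2 on hg19. The annotation and the strand setting are not given in the sources used here. The authors deposited 1 table in which the signal of a gene is its read count after division by the library's size factor. Multiplied by that factor (0.812 to 1.145), 100% of values in each library were whole reads within 0.001. F2 tazemetostat replicate 2 had the factor nearest 1 (0.991), and its values were also whole reads once multiplied by it. Limits from low counts (3 reads as the floor) cover counting error only.

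Values were tested as log2(value + 1) of the deposited signal with limma 3.58.1 (lmFit, eBayes with a trend) in R 4.3.3, in 1 fit of 6 group means over 18 libraries and 10 contrasts, for genes with a mean of at least 10. A fold is on this scale. The fit was tested on simulated data. An exact permutation test of 3 against 3 libraries cannot go below p = 0.1, and gave 0.1 wherever groups did not overlap. Alternatives were other pseudocounts, filters and scalings, no fold limit, only the compared groups, a replicate block, leaving out each library, and edgeR 4.0.16 and DESeq2 1.42.0 on recovered reads.

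Same-numbered libraries' deviations correlated between -0.24 and 0.38. All 3 pairs were over 0.1 for F2 against WT in DMSO (0.18, 0.11 and 0.38), the 1 contrast of 10 that the data pair, and the labels give no source for it.

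The members, the lists by role and the cell type markers were chosen with earlier results of these data known. One listed gene is not reported here and enters no count of the lists. Named genes are the members, the list genes with the largest and smallest changes, other list genes chosen after their values were seen, and the 5 genes of closest pattern. Transcript lengths and overlaps came from the principal transcripts of GENCODE 29, promoters from RefSeq. Figures used matplotlib in Python.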

Additional observations from a re-analysis of the deposited data

Results flagged for a closer look

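The response to tazemetostat differed between lines by a test of the difference itself (limma, interaction term) for 3 members between E1 and WT and 1 between the clones. Between E1 and WT these were HLA-B at -1.20, HLA-E at -1.24 and TAP1 at -1.14 on the log2 scale, with adjusted p of 4.1e-06, 5.2e-07 and 1.7e-07. Between E1 and F2 it was HLA-B at -1.22 (limma adjusted p 7.2e-06). All 4 were also past the threshold in edgeR, in DESeq2 and with each library left out in turn. Since E1 and F2 are each 1 clone, loss of RB1 and other differences between clones cannot be told apart.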

How the results depend on the processing

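The 80 tests of members (8 genes in 10 contrasts) kept direction and call with pseudocounts of 0.5 and 5, either filter, TMM scaling, the compared groups alone, DESeq2 and the replicate block, under which the called members were again 8 in WT, 3 in E1 and 5 in F2. With edgeR 79 did, and NLRC5 for F2 against WT in DMSO turned to 0.0011. Without the fold limit the members called were 7 in E1, 8 in F2, 3 for each clone in DMSO, 5 (E1) and 6 (F2) under tazemetostat, and 7, 3 and 6 for the responses of E1 and F2 against WT and of E1 against F2. Of the 16154 tested genes, 7554 were then called in E1, 8438 in F2, and 3740 (E1) and 3260 (F2) in DMSO. Under tazemetostat 8373 (E1) and 8573 (F2) were called, and for the 3 responses 5720, 4344 and 2384.

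Scaling every library to the same total moved the median of all genes by -0.15 for tazemetostat in WT, 0.15 for F2 against WT under tazemetostat and 0.12 for the F2 response. The share of calls that were higher went from 68.2% to 57.9%, from 59.5% to 71.4% and from 64.5% to 75.6%. With it TAP2 (0.92) and TAPBP (0.99) lost their call in WT, NLRC5 (0.96) in E1 and HLA-E (-0.87) in F2 against WT under tazemetostat, which left 0 members called there. Differences near 0, none of them called, turned sign: NLRC5 for F2 against WT in DMSO (0.013) and under tazemetostat (0.0075), TAP1 and TAP2 for E1 against WT under tazemetostat (0.042 and 0.029), TAP2 for F2 there (0.0078), and TAP2 and TAPBP for the F2 response against WT (0.024 and 0.12).

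Leaving out single libraries gave 0 to 1 called members for F2 against WT under tazemetostat and 2 to 4 for tazemetostat in E1. Uncalled differences that turned sign ranged from -0.092 to 0.021 (B2M) and -0.0013 to 0.18 (TAPBP) for E1 against WT in DMSO, from -0.14 to 0.063 for NLRC5 in F2 against WT in DMSO, and from -0.044 to 0.011 for TAP1 in E1 against WT under tazemetostat. For the F2 response against WT they ranged from -0.043 to 0.13 (HLA-B), -0.20 to 0.0051 (NLRC5) and -0.048 to 0.031 (TAPBP). The cause was not tested.

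Of all genes, a mean of at least 50 left fewer to test and 1550 (E1) and 1768 (F2) called with tazemetostat, 504 for E1 against WT in DMSO, 1139 (E1) and 1230 (F2) against WT under tazemetostat and 605 for the response of E1 against F2. With no filter the calls were 5720, 4082 and 4698 with tazemetostat in WT, E1 and F2, and 3130 and 3273 for E1 and F2 against WT under it. With no fold limit they were 10367, 7554 and 8438, then 3740 and 3260 for the clones in DMSO, 8373 and 8573 under tazemetostat, and 5720, 4344 and 2384 for the 3 response differences. Depth limited HLA-F (at most 9 reads a library).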
